A study of Homo sapiens and Mus musculus with 61 samples.

Results

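Both guides to the promoter of HBB, the adult beta-globin gene, were compared with the non-targeting guide sgGal4 in CAPTURE-ChIP-seq of K562 cells. Members were the libraries in the authors' tables for these guides, which came to 3 of the 61 samples of the series. The guide labelled sgHBB-sg2 had 2 libraries and the guide labelled sgHBB had 1, and each was set against the same 4 sgGal4 libraries, taken from the table of that guide. All of these libraries come from K562, a human leukaemia cell line, expressing biotinylated inactive Cas9 together with 1 guide RNA. DNA bound to the tagged protein was captured on streptavidin beads and sequenced. The sgGal4 cells carried the same protein with a guide that has no intended human target. The labels give replicate numbers but do not say that replicates came from separate cultures, so the p-values measure only the spread between these libraries, which may be technical. The single sgHBB library has no replicate, and its tests take it to vary like the sgGal4 libraries.

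Inactive Cas9 binds DNA without cutting it. Binding begins at a short motif beside the target, the PAM, which is NGG for the Cas9 in common use, and pairing between guide and DNA then spreads outward from the PAM. The bases next to the PAM are called the seed, and mismatches there disturb binding more than mismatches at the far end. HBB lies in the beta-globin cluster on chromosome 11, where the embryonic gene HBE1, the fetal genes HBG1 and HBG2 and the adult genes HBD and HBB are controlled by a distant locus control region. The proximal HBB promoter holds a CACCC box, which the erythroid factor KLF1 binds. K562 cells express embryonic and fetal globins and little HBB.

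The sources used here do not give the sequence of either guide. Every 20-mer followed by NGG in each on-target region was therefore looked up in the listed regions, on both strands of hg19. Of 46 such sites in the sgHBB region, 1 had a 10-base seed that recurred most often among the regions raised by sgHBB. It is shown here with the best match in the distal regions that the results below turn on. It was picked after the values were seen and is not named as the guide. Capitals mark the unbroken run of bases, counted back from the PAM, that is identical to the HBB site, together with the NGG.
HBB, chr11:5248382-5248404, minus strand: CCCTGTGGAGCCACACCCTAGGG
TNFRSF14, chr1:2498970-2498992, plus strand: agggcTGGAGCCACACCCTAAGG
PTPN4, chr2:120504493-120504515, plus strand: aagatgGGAGCCACACCCTAGGG
FA2H, chr16:74804956-74804978, plus strand: cgaggacGAGCCACACCCTAAGG
FMNL1, chr17:43304624-43304646, minus strand: ctggacacAGCCACACCCTAGGG
LAP3, chr4:17561255-17561277, minus strand: gaagacaaAGCCACACCCTAGGG
MAD1L1, chr7:1894914-1894936, plus strand: cggttgcggGCCACACCCTAGGG
ARVCF, chr22:19975405-19975427, plus strand: tcaatgtggGCCACACCCTAGGG
RAD50, chr5:131893274-131893296, minus strand: agcctgcagGCCACACCCTAAGG
ELL2, chr5:95254542-95254564, minus strand: atatacacacCCACACCCTAGGG
Gene names are those of the nearest transcription start. The HBB 20-mer lies 84 to 103 bp upstream of the HBB start at position 5248301, and the letters of its seed include the CACCC box.

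The tables listed 5226 regions for sgHBB-sg2 and 5164 for sgHBB, each 300 bp long. Values are the deposited log2 levels, normalised by the authors within each table, and from them whole read numbers could be worked out. The sgHBB-sg2 libraries held 47817 and 20574 reads in the listed regions of their table, against 44960, 79870, 7781 and 7542 in sgGal4 replicates 1 to 4. The sgHBB library held 88233 reads, against 42165, 74464, 7559 and 7350 in sgGal4. sgGal4 replicates 3 and 4 were thus shallow, with 28.2% to 32.7% of regions at 0 reads. The normalisation put a region with 0 reads at a log2 level of 0 in sgHBB, against 0.59, -0.03, 3.10 and 3.29 in the 4 sgGal4 libraries of that table. For sgHBB-sg2 the same floors were 0 and 1.69, against 0.93, 0.38, 3.16 and 3.08. A log2 difference at low reads therefore carries these floors and is not a log2 ratio of reads.

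At the intended target both guides lay above all sgGal4 libraries. The sgHBB-sg2 on-target region (chr11:5248070-5248369) runs from 231 bp downstream to 68 bp upstream of the HBB start and covers the first exon. Its log2 level was 9.41 and 7.35 in the sgHBB-sg2 libraries, against 0.93, 0.38, 3.86 and 4.29 in sgGal4 replicates 1 to 4. These are 678 and 125 reads, against 0, 0, 1 and 2. Both guide libraries were above every sgGal4 library, and the groups did not overlap. By reads the same held in 485 of the 5226 listed regions. The region had more reads than any other in both guide libraries, with 1.42% of reads in listed regions in replicate 1 (exact Clopper-Pearson 95% interval 1.31% to 1.53%) and 0.608% in replicate 2 (0.506% to 0.723%). A count of 0 allows up to 0.00667% in sgGal4 replicate 1 and 0.00376% in replicate 2. These limits are 3 divided by the reads and are not from the exact interval. All such intervals and limits cover counting error only.

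The mean log2 level of that region was 8.38 ± 1.45 in sgHBB-sg2 (SD, n = 2) and 2.36 ± 1.99 in sgGal4 (SD, n = 4). The difference was 6.02 (SE 1.02; limma adjusted p = 0.0063), the highest of the table, and the next highest region reached 3.49. Without sgHBB-sg2 replicate 1 the difference was 4.99 and the call was lost (limma adjusted p = 0.0692). It was also lost with a pseudocount in proportion to each library's reads, at 6.89 (limma adjusted p = 0.0832).

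The sgHBB on-target region (chr11:5248255-5248554) lies further upstream, from 46 bp downstream to 253 bp upstream of the HBB start. Its log2 level was 12.4 in sgHBB, against 1.59, -0.03, 4.25 and 3.29 in sgGal4. These are 5347 reads, against 1, 0, 2 and 0, so the guide library stood far above all 4 sgGal4 libraries. By reads sgHBB was above all 4 in 1356 of the 5164 listed regions. The region held 6.06% of the reads in listed regions (exact Clopper-Pearson 95% interval 5.90% to 6.22%). The difference was 10.11 (SE 1.49; limma adjusted p = 0.00841), again the highest of its table. With the pseudocount in proportion to reads it was 10.21 and the call was lost (limma adjusted p = 0.0800). The on-target regions of the guides overlap by 115 bp, each is listed in its own table only, and neither is listed in any of the 15 tables of other guides. The tables were normalised separately and the guides differ in the number of libraries, so the height of the signal was not tested between guides.

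**Figure D1:**
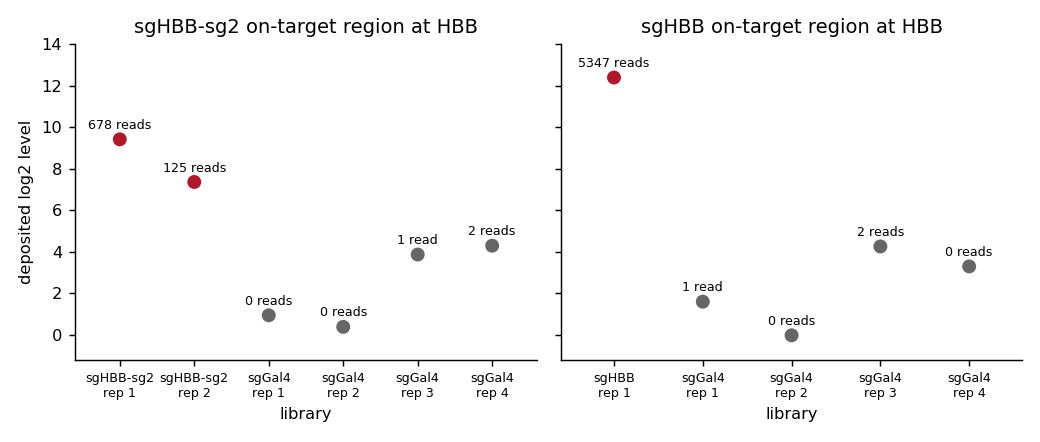
Deposited log2 level of the on-target region in every library, with the recovered reads printed above each point; guide libraries in red, sgGal4 libraries in grey, sgHBB-sg2 on the left and sgHBB on the right. The guide libraries lie at 7.35 to 9.41 and at 12.4, and no sgGal4 library exceeds 4.29.

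Elsewhere in the beta-globin cluster 1 further region was listed (chr11:5273371-5273670), in both tables, 2433 bp from the HBG1 start and between genes. It held 7 and 0 reads in sgHBB-sg2, against 7, 14, 0 and 2 in sgGal4, a difference of -1.34 (SE 0.52; limma adjusted p = 0.072) that did not pass the test. In sgHBB it held 1 read, against the same 7, 14, 0 and 2 in sgGal4. The difference there was -2.71 (SE 0.65; limma adjusted p = 0.0193) and the region counted as lowered, though after centring each library on its median it was -1.47 and no longer passed. No region at the locus control region sites HS1 to HS5 was listed for either guide.

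Away from HBB, sgHBB-sg2 had few raised regions and sgHBB had many. A region was called raised with a limma adjusted p below 0.05 and a log2 difference of at least 1, and lowered with the same p and a difference of at most -1. For sgHBB-sg2, 27 of 5226 regions were raised (0.517%) and 1518 lowered (29%), with a median difference over all regions of -0.72. Of the raised regions 1 was the target, and the other 26 had a median difference of 1.73. For sgHBB, 219 of 5164 were raised (4.24%) and 1911 lowered (37%), with a median of -1.44. Its 218 raised regions other than the target had a median difference of 3.28, and 85 regions away from the target reached 4 or more, against 0 for sgHBB-sg2. The tables share control libraries and differ in normalisation and replication, and the difference between the counts was not tested.

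Both splits moved with the scaling and the libraries. After centring each library on its median, 188 regions were raised and 646 lowered for sgHBB-sg2, and 462 and 537 for sgHBB. Leaving out sgHBB-sg2 replicate 1 left 0 regions raised, and leaving out its replicate 2 left 10. The count was 7, 9, 59 and 43 without sgGal4 replicates 1 to 4. Its lowered count was 0 without sgHBB-sg2 replicate 1. The sgHBB counts stayed within 1.5 times the main ones under each such omission, at 160 to 235 raised and 1380 to 1717 lowered. At an unadjusted limma p of at most 1e-05 and a difference of at least 1, 0 regions were raised for sgHBB-sg2 and 1 for sgHBB (0.0194%). That region, in an annotated exon of MGAT5, a glycosyltransferase gene, held 1026 reads in sgHBB, against 9, 12, 0 and 0 in sgGal4 (difference 6.55, SE 0.56), and its run to the 20-mer printed above was 10 bases.

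**Figure D2:**
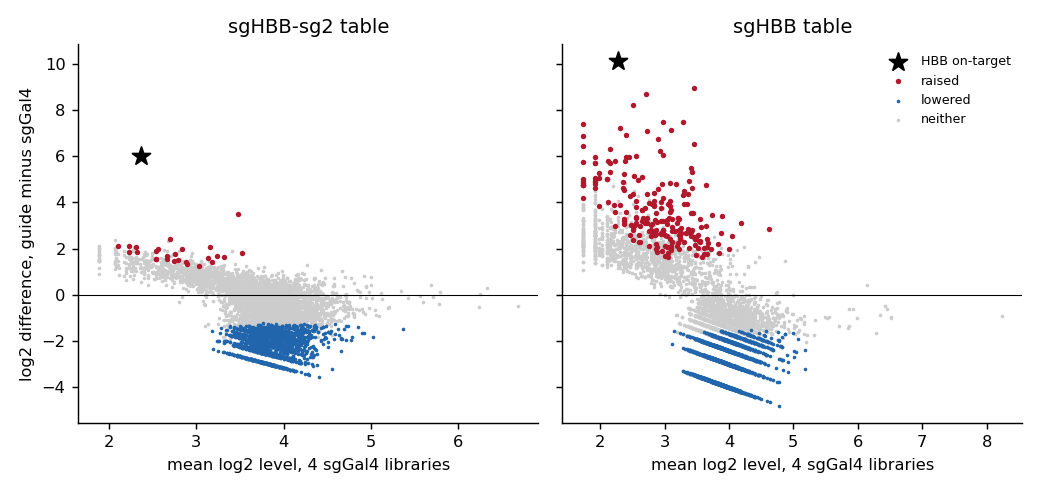
Log2 difference of guide minus sgGal4 against the mean log2 level of the 4 sgGal4 libraries, 1 point per listed region, for sgHBB-sg2 (left) and sgHBB (right); red raised, blue lowered, grey neither, black star the HBB on-target region. The star is the highest point in both tables, at 6.02 and 10.11, and a large group of raised regions is seen in the sgHBB table.

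The highest distal region of sgHBB had more reads than its target and a slightly smaller log2 difference. The region inside ARVCF, which encodes a catenin of cell junctions, held 5476 reads, against 4, 4, 2 and 2 in sgGal4 (chr22:19975284-19975583; difference 8.97, SE 0.94, limma adjusted p = 0.00841). It lies 817 bp from an annotated start and counts as promoter, defined as within 1000 bp of a start. An intronic region of MAD1L1, a spindle checkpoint gene, held 2705 reads, against 1, 7, 0 and 0 in sgGal4 (difference 8.69, SE 0.76). An intronic region of the formin gene FMNL1 held 1684, against 2, 2, 0 and 0 (difference 8.20, SE 0.80). In each of these regions sgHBB stood far above all 4 sgGal4 libraries. By reads it was above all 4 in 1356 of the 5164 listed regions.

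The next regions were an intron of ELL2, a transcription elongation factor, with 1420 reads, against 2, 3, 1 and 1 in sgGal4, and the promoter of the DNA repair gene RAD50, with 1718 reads, against 6, 3, 3 and 0. An intergenic region 17564 bp from LAP3, a leucine aminopeptidase, held 554 reads, against 0 in each sgGal4 library. Their differences were 7.50, 7.46 and 7.38. The remaining members of the 10 highest were an intergenic region nearest FOXD3, a forkhead factor (744 reads), an exon of DENND4C, a regulator of Rab proteins (1198 reads), an intron of HS2ST1, a heparan sulphate sulphotransferase (894 reads), and an intron of FA2H, a fatty acid hydroxylase (650 reads). Their sgGal4 libraries held at most 6 reads, and their differences ran from 7.24 down to 6.94. All 10 passed the test with limma adjusted p of 0.00841, or 0.00914 at LAP3. With the pseudocount in proportion to reads none of the 10 passed. None of the 10 was listed for sgHBB-sg2, and 9 were listed in none of the other 15 tables, as were 21.1% of all regions listed for sgHBB. The exception was RAD50, listed in 2 of them. Its highest log2 ratio there, by the authors' deposited tables, was 2.03, with the guide labelled sgHBD-1kb. These 10 regions held 19.3% of the sgHBB reads in listed regions.

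**Figure D3:**
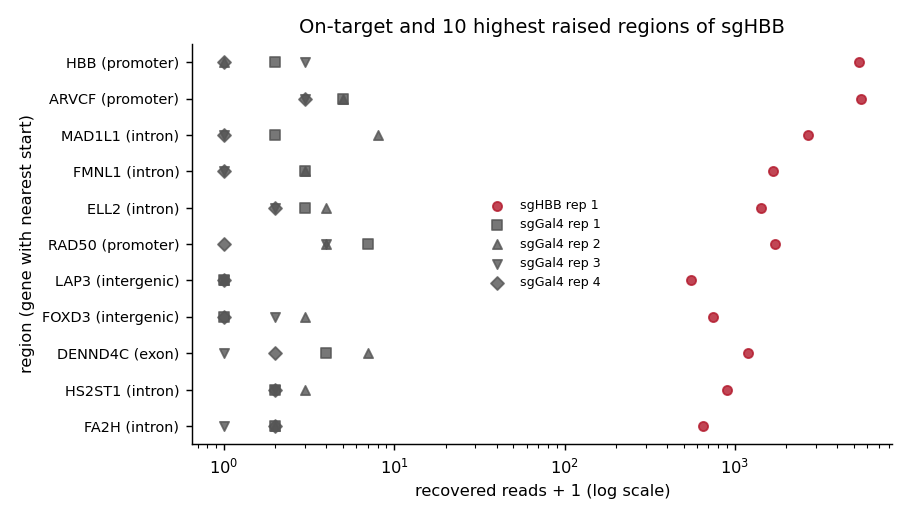
Recovered reads plus 1, on a log axis, at the on-target region and the 10 highest raised regions of sgHBB; red circles the sgHBB library, grey symbols the 4 sgGal4 libraries, regions named by the nearest start. The sgHBB reads lie between 554 and 5476, and no sgGal4 library exceeds 7.

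Part of the raised distal regions of sgHBB held the seed printed above. The 10 bases CCACACCCTA followed by NGG were present in 65 of the 218 raised regions (29.8%), against 59 of the 4945 regions not raised (1.19%) and 124 of all 5163 regions besides the target (2.40%). All of the 10 highest regions carried it, with runs of 10 to 13 identical bases from the PAM and 5 to 9 mismatches over the whole 20-mer. With only the last 8 bases the share was 45.9% of raised regions, against 3.56% of those not raised. With 12 bases it was 7.80%, against 0.0607%. The seed was picked, out of 46 sites, for having the most matches among these raised regions. That choice favours the contrast with regions not raised, by an amount that was not tested. The contrast is given as a description. Of the 46 sites in the on-target region, 40 matched no raised region at 10 bases. The next most frequent sites, found in 34 and 21 raised regions, overlap the same letters. Where the site was present it lay near the middle of the region, at a median of 9 bp from the centre in the raised regions and 12 bp in those not raised. It was within 50 bp of the centre in 65 of 65 raised regions and 58 of 59 not raised.

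The signal was higher in regions with longer runs. Among regions with 12 or more identical bases from the PAM, 17 of 20 were raised (85%), with a median difference of 4.98. With 11 bases 19 of 24 were raised (79.2%; median 5.28), with 10 bases 29 of 80 (36.3%; median 3.05) and with 9 bases 16 of 59 (27.1%; median 2.26). With 7 or 8 bases the count was 54 of 261 (20.7%; median 2.11), and with 5 or 6 it was 56 of 597 (9.38%; median 1.70). With at most 4 bases 27 of 4122 were raised (0.655%) and the median was -1.77. All 124 off-target regions with a run of 10 or more had a difference above 0, from 0.66 to 8.97, and the 59 not raised were among them. These are descriptions over regions of 1 library, with the seed chosen on the same regions. The medians kept this order between runs of 10 or more, 5 to 9 and at most 4 under every alternative tried.

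Longer matches elsewhere did not always carry more reads. The region nearest TNFRSF14, a receptor gene of the tumour necrosis factor family, had the longest run, 15 bases, with 138 reads, against 0, 0, 1 and 1 in sgGal4 (difference 5.02, SE 1.65, limma adjusted p = 0.0481). The region nearest PTPN4, a tyrosine phosphatase gene, had a run of 14 with 330 reads, against 0, 3, 1 and 0 (difference 5.97, SE 1.19, limma adjusted p = 0.0116). The ARVCF site, with 11 identical bases and 7 mismatches, held more reads than either. At the low end of the runs of 12, a region in an intron of EFCAB11 held 40 reads, against 3, 4, 0 and 0 (difference 2.56, SE 0.62, limma adjusted p = 0.0201). Of the raised regions, 191 of 218 (87.6%) had a run of 5 or more, and those with shorter runs included one nearest WDR38 with 219 reads.

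**Figure D4:**
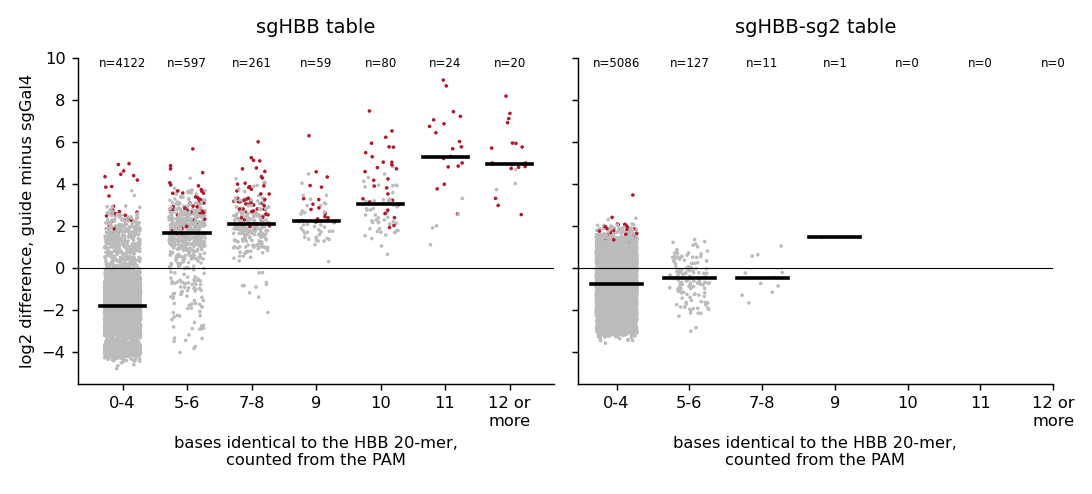
Log2 difference of guide minus sgGal4 for every off-target region, grouped by the number of bases identical to the HBB 20-mer counted from the PAM, in the sgHBB table (left) and the sgHBB-sg2 table (right); red points raised, grey points not raised, black bars medians, n above each group. In the sgHBB table the medians run from -1.77 at 0 to 4 bases to 5.28 at 11 bases, and in the sgHBB-sg2 table no region has a run of 10 or more.

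The base pair context beside the seed went with the call as well. Of regions with the 8 bases ACACCCTA followed by NGG, 100 of 276 were raised (36.2%; median difference 2.70). Where the same 8 bases were followed by NAG, 0 of 8 were raised and the median difference was 1.53. Where they were followed by NGA, 1 of 4 was raised, and by any other bases 0 of 24, with 4 lowered and a median difference of -1.21. Regions without the 8 bases were raised in 117 of 4851 cases (2.41%). The groups with other neighbours are small. The sources used here do not say how regions were chosen for listing, so a region may be listed because it was high in sgHBB. The seed was also picked by its matches followed by NGG among these raised regions. That choice favours a higher share raised with NGG, by an amount that was not tested, and the share is a description only.

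Long runs to the 20-mer were also more frequent among all regions listed for sgHBB than in the other tables. A run of 10 or more was found in 125 of its 5164 regions (2.42%), the target included, against 0% to 0.0318% of regions in the other 16 tables, sgHBB-sg2 among them at 0%. A run of 5 or more was found in 20.2% of the sgHBB regions, against 2.22% to 4.32% in the others. Counted in reads, the 124 off-target regions with a run of 10 or more took 34.2% of the sgHBB reads, against 0.372%, 0.408%, 0.820% and 1.24% in sgGal4 replicates 1 to 4. Those with a run of 5 or more took 66.7%, against 7.15%, 7.68%, 11.6% and 12.9%. The seed was picked on regions raised in sgHBB, which favours higher shares there by an amount that was not tested. Among sgHBB regions not raised, on which it was not picked, 59 of 4945 (1.19%) had a run of 10 or more. How regions came to be listed is not known. These shares are given as a description and support nothing further.

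The authors' deposited table of sgHBB tags 3 regions as off-target and that of sgHBB-sg2 tags none. None of the 3 passed the test. The closest 20-mer in each, with capitals marking the run and the NGG, was as follows.
NAV1, chr1:201616197-201616219, minus strand: ccaggtggagccacactCTAGGG
TMPRSS15, chr21:20618624-20618646, plus strand: cgcgagGGAGCCACACCCTAcag
ECI2, chr6:4294997-4295019, plus strand: gcctctggggccacaccctgTGG
The NAV1 site, in an intron of a neuron navigator gene, has 3 mismatches to the HBB 20-mer but a run of 3. Its region held 20 reads in sgHBB, against 4, 6, 0 and 5 in sgGal4 (difference 0.93, SE 0.99, limma adjusted p = 0.413). The site nearest TMPRSS15, the enteropeptidase gene, has 4 mismatches and a run of 14 but is followed by CAG. Its region held 35 reads, against 0, 1, 3 and 2 (difference 2.54, SE 1.68, limma adjusted p = 0.225). The site nearest ECI2, a fatty acid oxidation gene, has 4 mismatches, one of them next to the PAM, so its run is 0. Its region held 34 reads, against 0, 0, 1 and 2 (difference 2.92, SE 1.74, limma adjusted p = 0.191). All 3 had fewer reads than any of the 10 highest regions. Those 10 had 5 to 9 mismatches at their NGG site of longest run and were not searched for a closer 20-mer. At the NGG site of longest run the 3 tagged regions had 3, 16 and 14 mismatches, so mismatches were not compared between the sets. Without both shallow sgGal4 libraries all 3 regions passed the test. That setting was chosen after seeing the data and raised far more regions of the whole table than the main fit did.

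The raised distal regions of sgHBB-sg2 were mostly promoters. The highest was the promoter of MRPL11, a mitochondrial ribosomal protein gene (chr11:66206320-66206619). It held 193 and 52 reads in sgHBB-sg2, against 3, 5, 4 and 1 in sgGal4. Both guide libraries were above all controls in reads, as in 485 of the 5226 listed regions. The MRPL11 difference was 3.49 (SE 0.66, limma adjusted p = 0.0063). Without sgHBB-sg2 replicate 1 the difference was 2.86 and did not pass (limma adjusted p = 0.0716). The region was also listed in 10 of the 15 tables of other guides, where the authors' deposited tables give a log2 ratio of at most 0.98.

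The promoter of PCBD2, a dehydratase that acts in pterin recycling, held 43 and 13 reads, against 0, 3, 0 and 3 (difference 2.43, SE 0.80, limma adjusted p = 0.039). That of ZNF627, a zinc finger gene, held 17 and 10, against 0, 2, 0 and 0 (difference 2.11), and that of EIF3B, a translation initiation factor, 12 and 12, against 0, 1, 0 and 0 (difference 2.10). The promoter of CITED4, a coactivator partner, held 14 and 14, against 0, 3, 0 and 0 (difference 2.07). The others of the 10 highest were the promoters of MTSS1, ZNF783, LRRC74B, CSK and TM2D3, with 7 to 34 reads per guide library, against 0 to 5 in sgGal4, and differences of 1.87 to 2.05. In the authors' deposited tables of the 15 other guides, the highest log2 ratio was 2.55 at MTSS1, 2.12 at CITED4, 2.01 at ZNF783 and 2.00 at CSK. It was 1.61 at LRRC74B, 1.40 at TM2D3, 0.72 at PCBD2 and 0.66 at ZNF627. The EIF3B region was listed in none of them. Without sgHBB-sg2 replicate 1 all 10 lost the call. Without replicate 2 it was lost at all but MRPL11, LRRC74B and CSK.

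None of the 26 raised off-target regions of sgHBB-sg2 held a 10-base or 12-base seed of any of the 43 NGG sites in its target region. At 8 bases no site matched more than 1 (3.85%). Over all 5225 regions besides the target, no single site matched more than 0.134% at 10 bases, 0.0383% at 12 and 0.938% at 8. With shares this small, a count of 0 among 26 says little about the raised regions. The longest run of the MRPL11 region to any of these sites was 7 bases, which 21.1% of all listed regions reach. No region of this table held a run of 10 or more to the HBB 20-mer printed above, which is not inside the sgHBB-sg2 target region. Of the 26, 21 were promoters (80.8%), against 24.9% of all regions listed in the table, and their median GC content was 75.3%, against 52.7% over all. Of the 26, 2 (7.69%) were in none of the 15 other tables, against 6.05% of all regions listed for sgHBB-sg2. A log2 ratio of 1 or more in one or more of those tables was reached by 19 (73.1%), against 11.5% of all, by the authors' deposited tables. Those comparisons share the sgGal4 libraries with this one.

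For sgHBB the raised regions resembled the table as a whole in annotation. Of the 218, 32 were promoters (14.7%), against 14.2% of all listed, 73 were intronic (33.5%), against 32.9%, and 95 were intergenic (43.6%), against 46.0%. Median GC content was 48.7%, against 47.7%. Of these regions 169 (77.5%) were in none of the 15 other tables, against 21.1% of all regions listed for sgHBB. A log2 ratio of 1 or more in one or more of those was reached by 28 (12.8%), against 5.48% of all, by the authors' deposited tables. Across the guides, 1 of the 26 sgHBB-sg2 regions (3.85%) was listed in the sgHBB table, against 72.7% of all its listed regions. Of the 218 sgHBB regions, 7 (3.21%) were listed in the sgHBB-sg2 table, against 73.5% of all. As a region may be listed because it was high with 1 guide, these shares are a description, with no test.

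**Figure D5:**
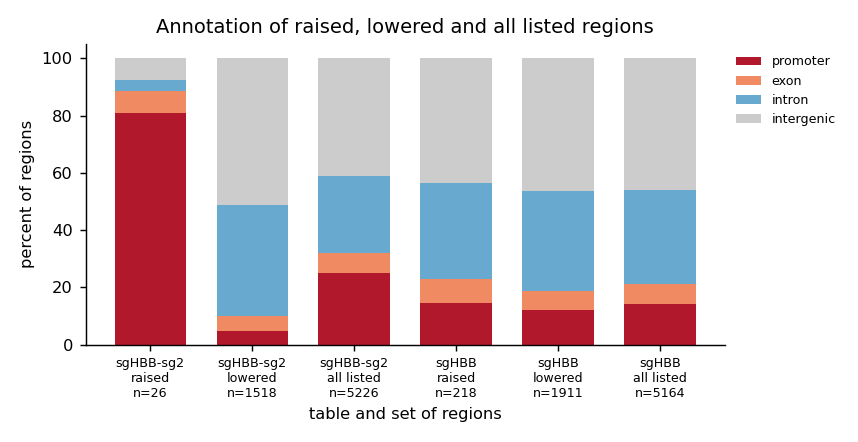
Percent of raised off-target, lowered and all listed regions that fall in promoters (within 1000 bp of a start), exons, introns and intergenic sequence, for sgHBB-sg2 and sgHBB. Promoters make up 80.8% of the raised regions of sgHBB-sg2 and 14.7% of those of sgHBB.

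The most strongly lowered regions had no reads in the guide libraries. The lowest for sgHBB-sg2 were intergenic regions nearest MTPN, MVB12B and TENT5A, with 0 reads in both guide libraries and 2 to 25 in sgGal4 (differences -3.56, -3.45 and -3.44). For sgHBB they were regions nearest MYLK4, CAMK2G and DIP2B, with 0 reads, against 2 to 39 in sgGal4 (differences -4.78, -4.64 and -4.59). All 6 had limma adjusted p of 0.0063 or 0.00841. All were also listed in each of the 15 tables of other guides. Their highest log2 ratio there, by the authors' deposited tables, was -1.27 to 0.69. With the other HBB guide the differences were -2.90, -2.05 and -2.78 at MTPN, MVB12B and TENT5A. They were -2.41, -1.36 and -1.84 at MYLK4, CAMK2G and DIP2B. Of the 1518 lowered regions of sgHBB-sg2, 4.61% were promoters, against 24.9% of all listed. Their median GC content was 39%, against 52.7% over all. Of the 1911 lowered regions of sgHBB, 12.1% were promoters, against 14.2% of all listed. Their median GC content was 45.3%, against 47.7% over all. The floors for 0 reads lie at 3.08 to 3.29 in the shallow sgGal4 libraries and at 0 in the sgHBB library. A pseudocount in proportion to reads puts 0 reads at the same value in every library. With it the MTPN, MVB12B and TENT5A regions were at -3.67, -3.41 and -3.40 in sgHBB-sg2 and did not pass (limma adjusted p = 0.0832). With a pseudocount of 5 they were at -1.95, -1.88 and -1.87 and did not pass (limma adjusted p = 0.765). Without sgHBB-sg2 replicate 1 they were at -2.72, -2.60 and -2.59. Beyond these alternatives, the part of the floors in the lowered calls was not tested.

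Erythroid genes were looked up within 10000 bp of their starts. Of 15 genes for erythroid regulators, 5 had a listed region in each table, 6 regions in all. For sgHBB-sg2 0 were raised and 0 lowered, with a median difference of -0.46, against -0.72 over all regions. For sgHBB 1 of the 6 was raised and 4 were lowered, where 4.24% and 37% of all its regions were, with a median of -2.06, against -1.44 over all. Counts this small are given as a description. The raised one was an exonic region of KLF1, the factor that binds CACCC boxes, 2029 bp from its start, with 91 reads, against 5, 10, 0 and 0 in sgGal4 (difference 3.31, SE 0.51, limma adjusted p = 0.00841). It has a run of 5 bases. The lowered ones were near the transcription factor genes GATA2 and GFI1B, the GATA cofactor gene ZFPM1 and KLF1 itself at another position, with 1 to 3 reads in sgHBB and differences of -1.89 to -2.69. The KLF1 exon region lost its call with a pseudocount of 5 on the reads (difference 1.51, limma adjusted p = 0.30) and with the pseudocount in proportion to reads (difference 4.18, limma adjusted p = 0.166). After centring each library on its median it was raised and 0 of the 6 were lowered. Without sgGal4 replicates 1, 2 and 3 in turn the lowered count was 2, and without replicate 4 it was 3.

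The other lists were thinly covered. Of 9 haem synthesis genes, PPOX and ALAD, enzymes of the pathway, had listed regions. In sgHBB-sg2 2 of 4 were lowered and 0 raised, where 29% of all regions were lowered, with a median difference of -1.25, against -0.72 over all. In sgHBB 2 of 3 were lowered and 0 raised, where 37% of all were lowered, with a median of -1.85, against -1.44 over all. After centring the lowered counts were 0 and 1. The sgHBB-sg2 count was also 0 without sgHBB-sg2 replicate 1 and 1 without sgGal4 replicate 3 or 4, and the sgHBB count was 1 without any one sgGal4 library. Of 10 erythroid membrane genes, EPB41 and ANK1, which encode proteins of the membrane skeleton, had 2 listed regions in each table. For sgHBB-sg2 0 of these were called, with a median difference of -0.18, against -0.72 over all. For sgHBB 0 were raised and 1, near ANK1, was lowered, where 37% of all regions were, with a median of -1.62, against -1.44 over all. The ANK1 call was one that centring or leaving out any sgGal4 library ended. The alpha-globin genes had 1 listed region in the sgHBB-sg2 table, with 15 and 9 reads, against 4, 4, 1 and 3, a difference of 0.74 (SE 0.60; limma adjusted p = 0.369), and none in that of sgHBB.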

How the data were processed

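CAPTURE-ChIP-seq reads that aligned to a single place in hg19 were kept, per the labels' protocols. Bowtie 1.0.0 and Picard are named per the submitters' processing notes; the sources used here do not give the region caller, the normalisation, the handling of duplicates or the guide sequences. Judged by their values, the deposited numbers are log2 levels of each library in 300 bp regions, normalised by the authors per table, and a log2 ratio M of mean linear levels. Each column's levels are a linear function of log2 whole numbers (100% of values whole within 0.01), and 1 was subtracted from these to give reads.

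Guide and sgGal4 libraries were compared within each table with limma 3.58.1 in R 4.3.3 on the log2 levels, with empirical Bayes without trend and Benjamini-Hochberg adjustment over all regions. The fit was tested on simulated normal noise with the same spread in every library. The simulation held none of the floors, shallow libraries or low whole reads of these data, so it does not test their effect. Annotation used GENCODE 44 protein-coding transcripts in their GRCh37 version, whose coordinates are those of hg19; starts are printed counted from 1. A region counted as listed in another table at an overlap of at least 150 bp. Named regions were the target, other cluster regions, the authors' off-target tags, the 10 highest raised and the 3 lowest lowered per table; others were chosen after their values were seen. The members and lists were chosen with earlier results of these data known. Alternatives were another pseudocount, median centring, a variance trend, a filter at 10 reads, each library left out, a replicate block, other thresholds and seed lengths.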

Additional observations from a re-analysis of the deposited data

Results flagged for a closer look

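In the sgHBB table, the region nearest NAV1 that the authors' deposited table tags as off-target had a log2 level of 5.16 in sgGal4 replicate 4, against 2.68 to 3.10 in the other sgGal4 libraries. The gap was 0.831 of the range, above Dixon's critical value for 4 samples. Among the named regions chance alone gives such a gap in about 1 in 20 groups. Replicate 4 is one of the shallow libraries, and its level stands for 5 reads.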

How the results depend on the processing

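Both targets kept their direction under all alternatives tried, at 4.99 to 7.73 for sgHBB-sg2 (4.99 to 7.04 with 1 library left out) and 7.77 to 11.60 for sgHBB. The sgHBB-sg2 call was lost without its replicate 1 (4.99) and with the pseudocount in proportion to reads (6.89), an alternative chosen after seeing the data, which also ended the sgHBB call (10.21). With that pseudocount 0 regions were raised and 0 lowered for either guide. With a pseudocount of 1 on the reads, 486 were lowered for sgHBB-sg2 and 101 raised for sgHBB. With a pseudocount of 5, 1 was raised and 0 lowered for sgHBB-sg2, and 9 raised and 0 lowered for sgHBB. Median centring gave 188 raised and 646 lowered, and 462 and 537. Leaving out both shallow sgGal4 libraries, also chosen after seeing the data, gave 317 raised and 909 lowered, and 1201 and 2969; of these raised regions 25 and 219 were among the 27 and 219 of the main result. With 1 library left out, the sgHBB-sg2 counts ran from 0 to 59 raised and from 0 to 1392 lowered. At an unadjusted limma p of at most 1e-05, 0 were raised and 0 lowered for sgHBB-sg2, and 1 raised and 0 lowered for sgHBB; at an unadjusted p under 0.05, 144 and 354 were raised. A difference past 2 left 7 raised and 805 lowered for sgHBB-sg2. A seed of 8 bases raised the sgHBB share to 45.9% and one of 12 lowered it to 7.80%. The NAV1 region reversed with a pseudocount of 5, to -0.53. Among named regions, 162 of the sgHBB values stayed on their side of the threshold, 21 lost the call and 3 gained it, and for sgHBB-sg2 135 stayed and 61 lost it. The causes were not tested.

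Samples with the same replicate number did not deviate together (Pearson's r across regions -0.0435 and 0.0280), so the numbers were not taken to pair libraries. With a replicate block 371 regions were raised and 1215 lowered for sgHBB-sg2, and its target was at 7.73. No paired analysis was possible for sgHBB because it has 1 library. Shallow sgGal4 libraries, with 1 read per region at the median, limit what could be detected.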
